A study of Mus musculus with 6 samples.

Results

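The guanylate-binding proteins (GBPs) are large GTPases of the dynamin superfamily. The deposited table holds 24054 gene rows, and the 10 rows read here were chosen by gene symbol: Gbp2, Gbp3, Gbp4, Gbp5, Gbp6, Gbp7, Gbp8, Gbp9, Gbp10 and Gbp11. The family was proposed because its expression differed between the study's groups in earlier results, so its difference between groups is described here and carries no test. The row Gbp2b, the mouse gene long called Gbp1, was not among the 10 and is given for comparison.

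Total RNA was sequenced from 2 mouse lines with the cell type label liver BNL 1ME A.7R.1, with 3 libraries each, replicates A to C. The parental line TIBx has the genotype WT. The line TIBxDNAJ-PKAc, titled an FLC cell line, has the genotype DNAJ-PKAc, named for the protein that joins DNAJB1, a co-chaperone, to the protein kinase A catalytic subunit and defines fibrolamellar carcinoma. Both lines were grown in the same medium with serum, and no cytokine or other agent is named in the labels for either. There is 1 line per genotype and the labels do not say how it was derived, so the fusion and any other difference between the lines cannot be told apart. The labels do not say that replicates were separate cultures, so SDs and p-values here rest on differences among libraries that may be technical only.

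Transcription of GBP genes is driven by interferons, above all interferon-gamma, through factors such as IRF1. The proteins assemble on vacuoles that hold pathogens and on the surface of bacteria in the cytosol, where they help to break membranes and to activate inflammatory caspases. Some members, in mice Gbp2b, Gbp2 and Gbp5, end in a CaaX box that is prenylated and anchors them in membranes. The mouse genes sit in a pair of clusters, one on chromosome 3 and one on chromosome 5.

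On the RefSeq annotation of GRCm38.p6, the assembly of the build mm10, the chromosome 3 cluster runs from 142496934 to 142638008 in the order Gbp5, Gbp7, Gbp3, Gbp2b and Gbp2. The chromosome 5 cluster runs from 105012513 to 105346476 in the order Gbp8, Gbp9, Gbp4, Gbp10, Gbp6 and Gbp11. All are annotated as protein coding but Gbp11, a transcribed pseudogene in this annotation. The RefSeq promoter table covered 5 of these genes (4 of the 10 members), all on chromosome 3. Each of the 5 had the letters TTTC, any 2 bases and TTTC again, the core of an interferon-stimulated response element, between 250 bases before and 50 after an annotated start. The stretches are shown because this element is the textbook link between interferon and the family. Capitals mark the matches, which lie on the gene's strand as written. The match of Gbp3 is a pair that overlap by 4 bases.
Gbp2, chr3:142620594-142620623, plus strand: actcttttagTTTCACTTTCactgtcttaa
Gbp7, chr3:142530273-142530302, plus strand: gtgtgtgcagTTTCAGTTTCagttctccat
Gbp3, chr3:142559989-142560024, plus strand: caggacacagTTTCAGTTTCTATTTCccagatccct
Gbp2b, chr3:142594700-142594729, plus strand: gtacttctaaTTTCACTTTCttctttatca
Gbp5, chr3:142496759-142496788, plus strand: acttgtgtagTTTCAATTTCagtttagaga
The match began 59 bases before the start in Gbp2, 53 in Gbp7, 45 in Gbp3, 137 in Gbp2b and 165 in Gbp5. Searched on both strands (on the other strand it reads GAAA, any 2 bases, GAAA), it occurred in 3.99% of the 27025 genes with such windows. A second annotated start of Gbp3 had no match in its window. The other pattern searched was TTC, any 3 bases and GAA, like the gamma-activated site (GAS). It occurred in the windows of Gbp5 and Gbp7 and in none of Gbp2, Gbp3 or Gbp2b, beside 9.55% of all genes with windows. These are matches of letters and were not examined as sites.

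The whole Gbp2 window, chr3:142620413-142620712 on the plus strand, reads as follows, with the same match in capitals.
Gbp2 promoter: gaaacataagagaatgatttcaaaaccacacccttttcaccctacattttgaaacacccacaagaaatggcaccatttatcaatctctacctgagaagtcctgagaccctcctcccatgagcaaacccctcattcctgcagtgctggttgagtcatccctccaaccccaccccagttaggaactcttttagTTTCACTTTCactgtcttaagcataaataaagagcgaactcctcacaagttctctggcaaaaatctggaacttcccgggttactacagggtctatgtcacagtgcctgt
Gbp5, whose window holds the same letters, had almost no reads in either line.

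The libraries held 8095549 to 9969590 expected counts each, and values of 3 libraries are in the order A, B, C. Levels are CPM (each count relative to its library size) scaled by the trimmed mean of M values (TMM), and 1 CPM is 8.10 to 10.1 counts. Across the 10975 genes tested, 385 passed the threshold (an adjusted p under 0.05 by the quasi-likelihood test of edgeR, with the Benjamini-Hochberg method), which is 3.51% in either direction and 2.14% lower in DNAJ-PKAc. The split was 150 higher and 235 lower, and with upper-quartile scaling 114 and 295. Prkaca, the kinase gene of the fusion, measured 63.6, 87.6 and 79.2 CPM in WT against 131, 120 and 95.7 CPM in DNAJ-PKAc, which misses the threshold (adjusted p = 0.154). Dnajb1, the other gene of the fusion, measured 70.9, 63.7 and 58.0 CPM in WT against 76.0, 72.2 and 44.4 CPM in DNAJ-PKAc (edgeR adjusted p = 0.999). WT B and DNAJ-PKAc C stood apart from the other libraries of their groups, with correlations of log2 CPM of at most 0.958 and 0.914 with them, against 0.987 for WT A with C and 0.993 for DNAJ-PKAc A with B. Of 10 hepatocyte markers, Alb and Hnf4a among them, 9 had 0 counts in all 6 libraries and the other had 1 count, so the liver label was not matched by these markers.

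Reads of the whole family were fewer in DNAJ-PKAc. The 10 members together measured 309, 280 and 228 CPM in WT against 83.3, 82.1 and 40.9 CPM in DNAJ-PKAc. The groups did not overlap, and DNAJ-PKAc C was the lowest library. The total was 3.96-fold lower in DNAJ-PKAc (log2 difference -1.98, SE 0.30, DNAJ-PKAc minus WT throughout), from 272 ± 41.2 to 68.8 ± 24.1 CPM (SD, n = 3). This log2 difference became -1.72 with DNAJ-PKAc C left out. In RNA from a whole culture, fewer expressing cells and less RNA per cell cannot be told apart.

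Of the 10 members, 7 passed the filter on low counts. Of these 7, Gbp4, Gbp6, Gbp9 and Gbp10 passed through their WT libraries alone, so they could only have been seen to be lower. All 7 were lower in every DNAJ-PKAc library than in any WT library, as were 13.1% of all genes tested. By the same test as above, 6 of the 7 were called lower, beside 2.14% of all genes. Because the family was proposed from this contrast, nothing is read from that count. It was 3 without any 1 of WT A, WT B, WT C, DNAJ-PKAc A or DNAJ-PKAc B, and 7 without DNAJ-PKAc C.

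**Figure D1:**
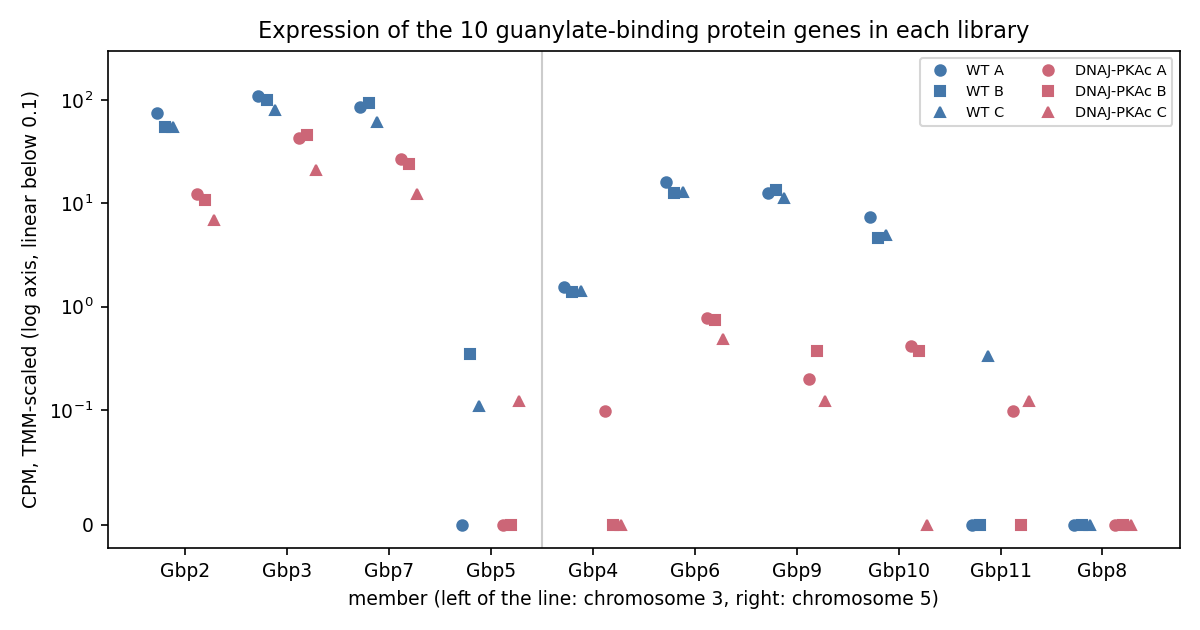
TMM-scaled CPM (vertical, logarithmic and linear below 0.1) of the 10 members (horizontal, chromosome 3 left and chromosome 5 right of the line), with 1 point per library, circles for replicate A, squares for B and triangles for C. Blue WT points lie above all red DNAJ-PKAc points for Gbp2, Gbp3, Gbp7, Gbp4, Gbp6, Gbp9 and Gbp10, and Gbp5, Gbp11 and Gbp8 lie at or near 0 in both groups.

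The abundant members were Gbp3, Gbp7 and Gbp2 on chromosome 3. Gbp3 measured 110, 99.1 and 80.1 CPM in WT against 42.8, 45.7 and 20.8 CPM in DNAJ-PKAc. Its log2 difference of -1.40 (SE 0.31), 2.64-fold lower, was the smallest of the 7, and 3.28% of all genes tested had a value as low or lower. It was the 1 tested member not called, and 5 of the 17 alternative fits called it.

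Gbp7, which in mouse macrophages takes part in the defence against Listeria and mycobacteria, measured 85.8, 93.7 and 61.6 CPM in WT against 26.7, 24.1 and 12.3 CPM in DNAJ-PKAc. The fitted log2 difference was -1.93 (SE 0.32), 3.81-fold lower. Gbp2, which coats the vacuole of Toxoplasma in mouse cells, measured 75.7, 54.7 and 54.6 CPM in WT against 12.3, 10.9 and 6.95 CPM in DNAJ-PKAc. Gbp2 differed most of the 3, by -2.62 (SE 0.27) on the log2 scale, 6.13-fold. In each of the 3 genes DNAJ-PKAc C was the lowest library.

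The order of Gbp2 and Gbp7 turned on the length used. Per kilobase of the longest coding transcript in GENCODE M21, the WT means were 35.9 CPM for Gbp3, 24.5 for Gbp2 and 14.3 for Gbp7, a gene with coding transcripts of 2497 and 5614 bases. Per kilobase of coding sequence they were 51.8 for Gbp3, 42.0 for Gbp7 and 34.9 for Gbp2. On that scale the WT libraries ran from 43.1 to 59.0 for Gbp3, from 32.2 to 49.0 for Gbp7 and from 30.9 to 42.9 for Gbp2, so the ranges of neighbours overlapped, although each of the 6 libraries taken alone had the order Gbp3, Gbp7, Gbp2. In DNAJ-PKAc the same levels were 19.6 for Gbp3, 11 for Gbp7 and 5.68 for Gbp2. There the ranges of Gbp3, 11.2 to 24.6, and Gbp7, 6.43 to 14.0, overlapped, as did those of Gbp7 and Gbp2, 3.93 to 6.95.

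The chromosome 5 members had lower levels in WT and few reads in DNAJ-PKAc. Per kilobase of coding sequence the WT means were 7.60 CPM for Gbp6, 6.71 for Gbp9, 3.10 for Gbp10 and 0.770 for Gbp4. The WT ranges of Gbp6, 6.87 to 8.82, and Gbp9, 6.12 to 7.23, overlapped. Gbp9, another member seen at the Toxoplasma vacuole in mouse cells, had 115, 115 and 103 counts in WT against 2, 3 and 1 in DNAJ-PKAc. In CPM that is 12.6, 13.4 and 11.4 against 0.198, 0.370 and 0.122, and the WT libraries were close to each other. The log2 difference was -5.69 (SE 0.38).

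Gbp6 and Gbp10, both implicated with Gbp7 in the defence of mouse macrophages against bacteria, differed by similar amounts. Gbp6 had 147.45, 107.96 and 118.03 expected counts in WT against 7.8, 6 and 4 in DNAJ-PKAc, a log2 difference of -4.33 (SE 0.31). Gbp10 had 67.55, 40.04 and 44.97 in WT against 4.2, 3 and 0 in DNAJ-PKAc, a log2 difference of -4.37 (SE 0.63). Neither gene's groups overlapped.

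Expected counts can be fractions where a read matches several genes and is divided between them. The 2 values of each library added up to a whole number in all 6 libraries: 215, 148 and 163 in WT and 12, 9 and 4 in DNAJ-PKAc. Of the stretches of 50 bases in the longest coding transcript of Gbp10, 70.6% also occurred in a transcript of Gbp6, and 62.3% the other way round. How many reads belong to each gene is therefore uncertain, whereas the sum does not depend on the division between them. The sum measured 23.6, 17.3 and 18.0 CPM in WT against 1.19, 1.11 and 0.487 CPM in DNAJ-PKAc, 20.6-fold lower (log2 -4.37, SE 0.36).

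**Figure D2:**
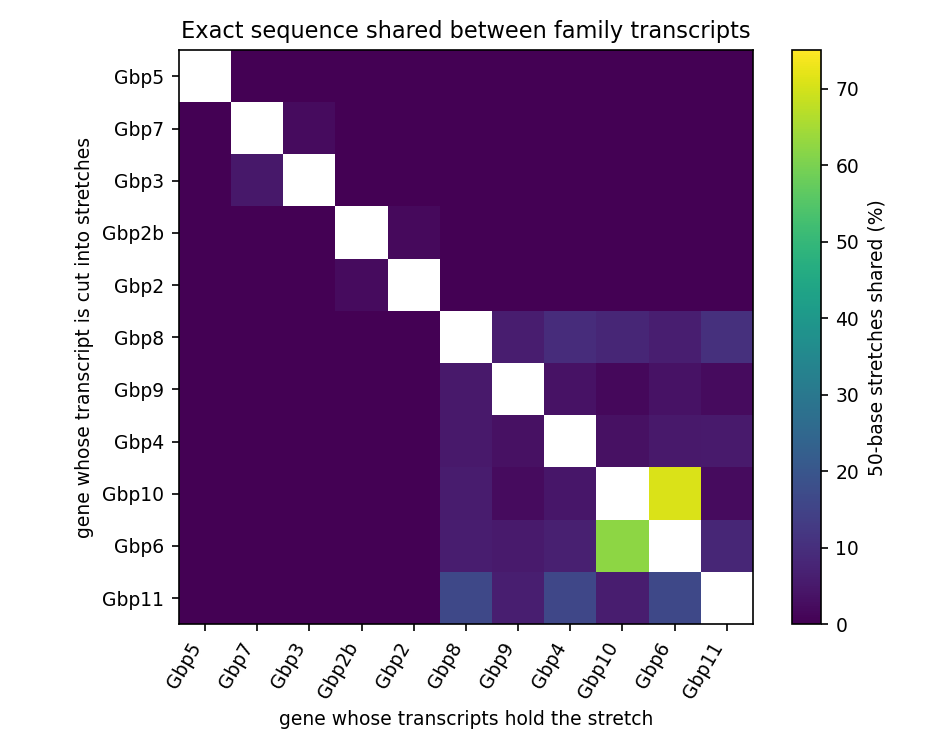
Percentage of the 50-base stretches of one gene's longest coding transcript (rows) that occur exactly in any GENCODE M21 transcript of another family gene (columns), with genes in genome order and the diagonal blank. The bright cells are Gbp6 and Gbp10, at 62.3% and 70.6%, whereas Gbp2, Gbp3, Gbp5, Gbp7 and Gbp2b share at most 4.79% with any other gene.

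Gbp4, described in mouse cells as a partner of the interferon factor IRF7, was the rarest tested member. It had 14.01, 12 and 13 counts in WT against 1, 0 and 0 in DNAJ-PKAc. The ratio of counts, scaled to the libraries, was 38.5, with a 95% counting interval of 6.51 to 1559. With counts this low its fitted difference depends on the model, and its call was lost without any 1 library but DNAJ-PKAc C. Its call was also lost with a term for the replicate letter in the fit. The GENCODE models of Gbp4, Gbp8 and Gbp9 overlap on the same strand, so reads of these 3 genes could also be shared. Their RefSeq intervals do not overlap, and the counts were whole in every library for Gbp8 and Gbp9 and in all but WT A for Gbp4.

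Gbp5, Gbp11 and Gbp8 fell below the filter. Gbp5, which promotes assembly of the NLRP3 inflammasome in mouse macrophages, had 0, 3 and 1 counts in WT against 0, 0 and 1 in DNAJ-PKAc, and its ratio of 3.95 had an interval of 0.391 to 194. Gbp11 had 0, 0 and 3 counts in WT against 1, 0 and 1 in DNAJ-PKAc. Gbp8 had 0 counts in every library, which allows up to 3 counts, or 0.297 to 0.370 CPM. No difference was detectable for these genes at this depth.

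Gbp2b, prenylated and known to bind bacteria and vacuoles in mouse macrophages, was lower too. It measured 37.3, 30.3 and 24.3 CPM in WT against 9.21, 8.40 and 4.87 CPM in DNAJ-PKAc, with no overlap. The log2 difference was -2.03 (SE 0.30, edgeR adjusted p = 0.0171). The call was lost without any 1 library but DNAJ-PKAc C, at an adjusted p of at most 0.0820.

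The difference was larger in the chromosome 5 cluster than in the chromosome 3 cluster. The chromosome 3 members together were 3.53-fold lower (log2 -1.82, SE 0.30), from 239 ± 38.3 to 67.5 ± 23.7 CPM (SD, n = 3). The chromosome 5 members together were 26.1-fold lower (log2 -4.71, SE 0.31), from 33.6 ± 3.54 to 1.27 ± 0.466 CPM (SD, n = 3). Shares within a library show this without any scaling of libraries. The chromosome 5 members made up 12.2%, 11.5% and 13.7% of all member counts in WT and 1.90%, 1.80% and 1.79% in DNAJ-PKAc. DNAJ-PKAc C, which had the fewest member counts (336), did not stand apart from the other fusion libraries in this share, with an exact 95% binomial interval of 0.658% to 3.85%. The lowest WT interval began at 10.2%. These intervals cover counting error only and leave out differences among libraries. No test is read from them, since the contrast proposed the family. The tested chromosome 5 members had also passed the filter through their WT libraries alone.

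**Figure D3:**
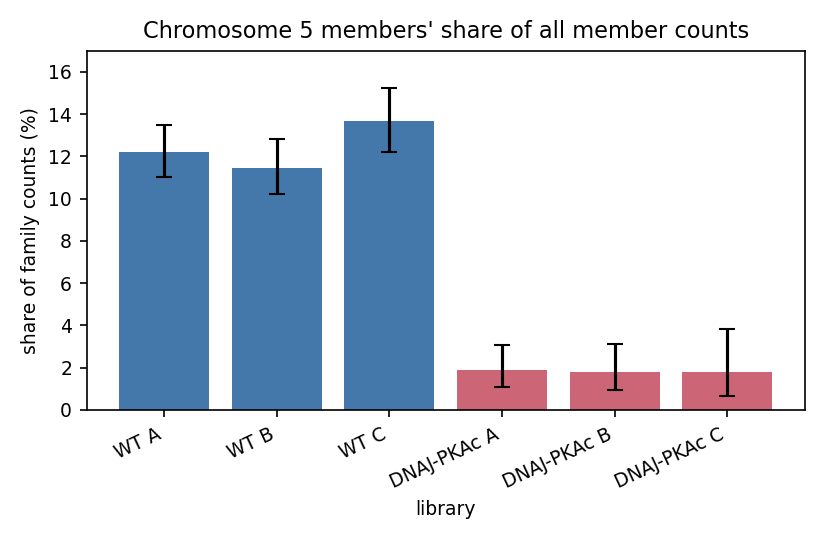
Share of all member counts (percent, vertical) held by the 6 chromosome 5 members in each library (horizontal), with blue bars for WT, red bars for DNAJ-PKAc and exact 95% binomial intervals that cover counting error only. The WT bars stand between 11.5% and 13.7% and the DNAJ-PKAc bars between 1.79% and 1.90%.

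Among the chromosome 3 members the makeup differed too. Gbp3 made up 40.4% ± 0.411 of their counts in WT and 53.6% ± 2.67 in DNAJ-PKAc (SD, n = 3), with no overlap between groups. Gbp2 made up 25.9% ± 3.34 and 15.3% ± 1.91, also without overlap. Gbp7 made up 33.6% ± 3.65 and 31.1% ± 1.46, and its groups overlapped.

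None of the nearest tested genes outside the clusters passed the threshold, 12 in all, beside 3.51% of all genes tested. With so low a share over all genes, nothing is read from this count. On chromosome 3, Pdlim5 lies 101 kb before the cluster and had a log2 difference of 0.32 (edgeR adjusted p = 0.394). Ccbl2 (now Kyat3), which lies 63.0 kb after it, had one of 0.13 (0.870). Gtf2b, 127 kb away, was at 0.48 and Pkn2, 153 kb away, at 0.04. The next tested genes on the other side, Rap1gds1 at 0.10 and Tspan5 at 0.38, lie 3422 and 3593 kb away. On chromosome 5, Zfp951 lies 152 kb before the cluster at 0.05 (0.957), and D930016D06Rik and Pkd2, 458 and 507 kb away, were at -0.60 and 0.32. After it come Lrrc8b, Lrrc8c and Lrrc8d, which encode subunits of the volume-regulated anion channel. Lrrc8b, 68.7 kb away, measured 33.6, 42.0 and 35.4 CPM in WT against 19.7, 19.6 and 26.7 CPM in DNAJ-PKAc, without overlap, but its log2 difference of -0.75 missed the threshold (adjusted p = 0.0957). Lrrc8c was at -0.60 (0.389) and Lrrc8d at -0.10 (0.881).

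**Figure D4:**
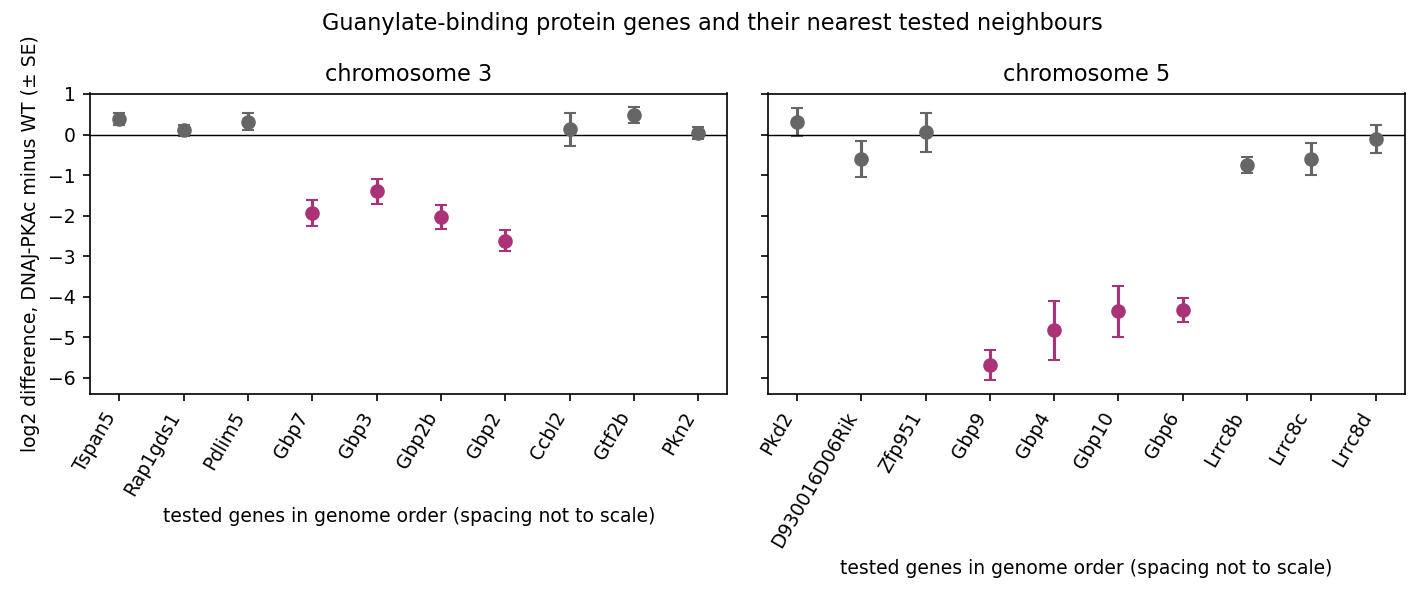
Log2 difference (vertical, DNAJ-PKAc minus WT, bars for the SE of the fit) of tested GBP genes (purple) and the 3 nearest tested genes on each side of each cluster (grey), in genome order. Purple points lie between -1.40 and -2.62 on chromosome 3 and between -4.33 and -5.69 on chromosome 5, and every grey point lies at or above -0.75.

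The immunity-related GTPases (IRGs), a second family of interferon-induced GTPases that work with the GBPs at vacuoles, fell in part. Of 14 listed genes 10 were tested, and 3 fell, beside 2.14% of all genes, and 0 rose. Their median log2 difference was -1.0, against 0.05 for all genes tested, and 9 of the 10 lay below 0, as did 46.1% of all genes tested. Among the 10, Iigp1, Gm4951 and Tgtp1 passed the filter through their WT libraries alone, so they could only have been seen to be lower. The effector Iigp1 measured 13.0, 8.64 and 7.84 CPM in WT against 0.594, 0.741 and 0.244 CPM in DNAJ-PKAc (log2 -4.18, SE 0.44, edgeR adjusted p = 0.00655). Gm4951, another IRG gene, had 257 counts in WT against 3 in DNAJ-PKAc, 84.6 to 1 after scaling (95% counting interval 28.6 to 413) (adjusted p = 0.00270). The third, Tgtp2, shares reads with its near-identical neighbour Tgtp1, so the division between them is uncertain (log2 -2.75, adjusted p = 0.00990, and 0.0537 at most without WT A or DNAJ-PKAc A). Tgtp2 had 243.38 counts over WT against 34.49 over DNAJ-PKAc, and Tgtp1 89.62 against 7.51.

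The regulatory IRGs, Irgm1, Irgm2 and Igtp, which keep the effectors off the cell's own membranes, did not pass the threshold, and they are set together after their values were seen. Irgm1 measured 124, 106 and 80.7 CPM in WT against 79.0, 91.1 and 34.6 CPM in DNAJ-PKAc, and the groups overlapped (log2 -0.60, edgeR adjusted p = 0.352). Irgm2 was at -0.62 (0.353) and Igtp at -0.40 (0.546). Without DNAJ-PKAc C, 5 IRG genes fell, in a fit that called 1221 of all genes lower and 1587 higher.

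The atlastins, the closest relatives of the GBPs, and the other interferon-induced GTPases were not called, with 0 of 6 rising or falling at the threshold by edgeR. By DESeq2 2 of them fell, beside 626 of all genes. Mx1, an antiviral GTPase, was at -2.47 (adjusted p = 0.0559) and Gvin1, the very large inducible GTPase, at -3.13 (0.112), with 101 CPM in WT B beside 22.3 and 8.53 in WT A and C. Atl3 was at -0.19 (0.673), Atl2 at 0.18 (0.620) and Mx2 at -0.62 (0.347). Of these 6 genes, 5 lay below 0, as did 46.1% of all genes tested, and 1, Atl2, above. Mx1 passed the filter through its WT libraries alone, so it could only have been seen to be lower. Without DNAJ-PKAc C, 1 of them fell, beside 1221 of all genes.

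No interferon gene had more than a few reads. Of 10 such genes 8, Ifng among them, had 0 counts in all 6 libraries. Ifnb1 had 1 count over WT and 4 over DNAJ-PKAc, and Ifne 0 and 1.

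Genes of the interferon-gamma receptor and its factors were mostly not called, with a median of -0.22. Of 11 tested genes 1 fell, beside 2.14% of all genes, and 0 rose. Nlrc5, the activator of MHC class I genes, fell from 8.0, 12.5 and 3.97 CPM to 0.792, 1.48 and 0.609 CPM (log2 -3.08, SE 0.55, edgeR adjusted p = 0.0317). That call was lost with limma-voom and without WT A, WT B, DNAJ-PKAc A or DNAJ-PKAc B (at most 0.143). Irf1 measured 44.1, 42.7 and 65.1 CPM in WT against 26.2, 22.2 and 34.7 CPM in DNAJ-PKAc, without overlap, yet missed the threshold (log2 -0.87, SE 0.25, edgeR adjusted p = 0.119). Jak1 was at -0.25 (0.452). By DESeq2 2 of the genes fell, beside 626 of all genes. Without DNAJ-PKAc C, 2 of the genes fell, beside 1221 of all genes.

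In the type I interferon list 0 of 9 rose or fell by edgeR, with a median of -0.07, and 1 fell by DESeq2, beside 626 of all genes. The kinase gene Tyk2 was at -0.61 (adjusted p = 0.0980), Irf7 at -0.84 (0.220) and Irf9 at -0.05 (0.858). Usp18, a feedback inhibitor of interferon signalling, measured 413, 305 and 250 CPM in WT against 339, 367 and 140 CPM in DNAJ-PKAc (log2 -0.19, adjusted p = 0.785), so its groups overlapped. Without DNAJ-PKAc C, 1 gene of the list fell, beside 1221 of all genes.

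Other targets of interferon-gamma lay lower, with few calls by edgeR on all 6 libraries. Of 16 genes 11 were tested, and 10 of these lay below 0, as did 46.1% of all genes tested. The median of the 11 was -0.54, against 0.05 for all genes tested, and 1 fell, beside 2.14% of all genes. Psmb8, a subunit of the immunoproteasome, measured 88.3, 68.5 and 91.5 CPM in WT against 33.7, 31.9 and 31.4 CPM in DNAJ-PKAc (log2 -1.36, SE 0.17, edgeR adjusted p = 0.0102, and at most 0.0631 where A or C of WT, or A or B of DNAJ-PKAc, was left out and the call was lost). The peptide transporter gene Tap2 was at -0.86 (0.10), the MHC class I gene H2-D1 at -0.50 (0.223) and its partner B2m at -0.16 (0.666). By DESeq2 4 of the genes fell, beside 626 of all genes. Without DNAJ-PKAc C, 4 of the genes fell, beside 1221 of all genes. With WT B left out as well, 9 fell, beside 2703 of all genes, so the number of calls turned on these libraries.

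Among 13 tested genes known to act with GBPs, 1 fell, beside 2.14% of all genes, and 0 rose, with a median of 0.11. Sqstm1, the autophagy receptor p62, measured 908, 773 and 759 CPM in WT against 449, 457 and 500 CPM in DNAJ-PKAc (log2 -0.79, SE 0.15, edgeR adjusted p = 0.0397, a call lost without any 1 library but DNAJ-PKAc C, at most 0.217). The Sqstm1 call was also lost with a term for the replicate letter in the fit. Atg16l1, part of the conjugation machinery that brings GBPs to vacuoles, was at 0.69 (0.0672), Gabarap at -0.19 (0.704) and galectin-3 (Lgals3) at -0.24 (0.532). The caspases and sensors downstream of GBPs had few reads: Casp4 15 counts over WT and 2 over DNAJ-PKAc, Casp1 3 and 0, Aim2 2 and 0, and the adaptor gene Pycard 0 in all 6 libraries. With DNAJ-PKAc C left out, 2 of these genes rose and 1 fell, beside 1587 and 1221 of all genes.

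Of 8 genes for prenylation and CaaX processing, 1 rose, beside 150 of the 10975 genes tested, and 0 fell, with a median of 0.17. The gene that rose, Fdps, makes farnesyl diphosphate in the cholesterol pathway (log2 0.96, SE 0.18, edgeR adjusted p = 0.0358, a call lost without any 1 library but DNAJ-PKAc C, at most 0.158, and with upper-quartile scaling). The Fdps call was also lost with a term for the replicate letter in the fit. The CaaX protease gene Rce1 was at 0.54 (0.167), Icmt at 0.02 (0.933) and the prenyltransferase gene Fnta at 0.24 (0.412). With DNAJ-PKAc C left out, 2 of these genes rose, beside 1587 of all genes.

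**Figure D5:**
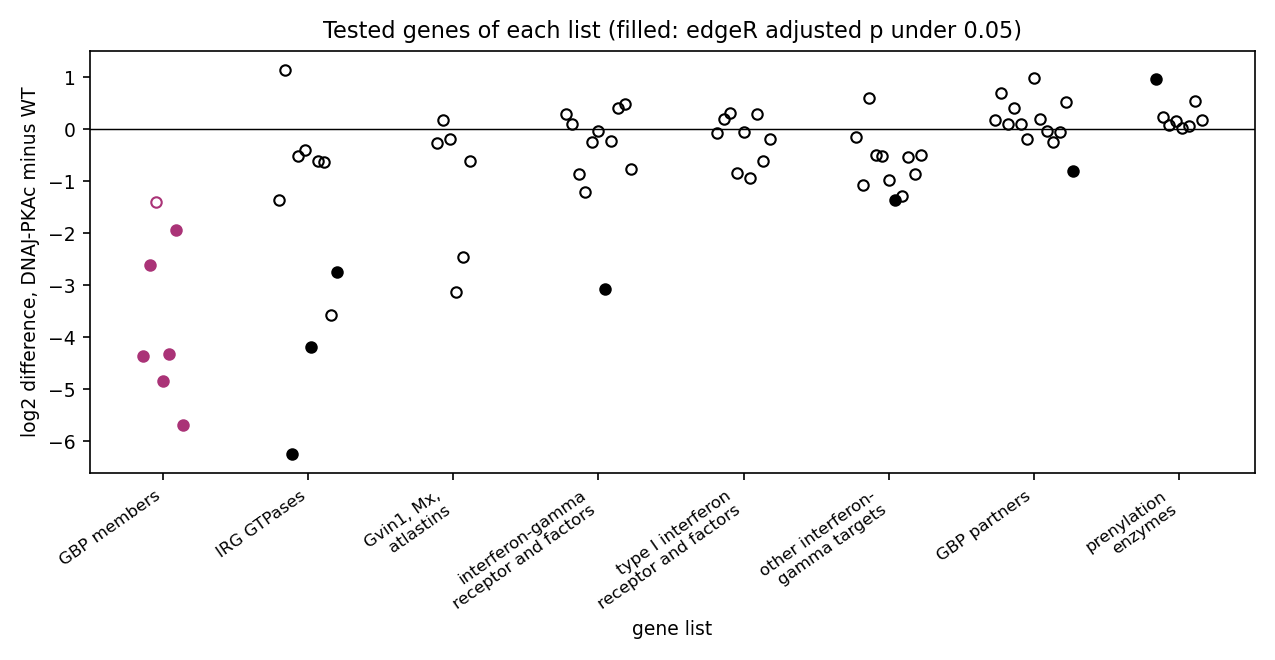
Log2 difference (vertical, DNAJ-PKAc minus WT) of each tested gene in the GBP family (purple) and in 7 lists of related genes (black), by list (horizontal), with filled points for an edgeR adjusted p under 0.05. All 7 GBP points lie at or below -1.40, 3 IRG genes are filled at or below -2.75, and the medians of the other lists lie between -0.54 and 0.17.

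Macrophages and other leukocytes are the cells in which GBPs are best known, so leukocyte markers are given beside the family. Of 16 markers 9 had 0 counts in all 6 libraries, Ptprc (CD45), Itgam and Emr1 (F4/80) among them. Their summed level was 39.9 to 103 CPM in WT and 20.4 to 83.2 CPM in DNAJ-PKAc, almost all of it from Cd14, which also occurs in other cells. Cd14 measured 99.8, 82.0 and 37.6 CPM in WT against 78.5, 77.9 and 18.5 CPM in DNAJ-PKAc (log2 -0.33, edgeR adjusted p = 0.758). The other marker tested, the macrophage gene Cd68, measured 2.41, 1.05 and 1.21 CPM in WT against 3.37, 4.32 and 1.58 CPM in DNAJ-PKAc (log2 0.98, adjusted p = 0.294). The groups overlapped for both. Of 8 endothelial markers none was tested, and their sum was at most 2.32 CPM. The part of these cells in the GBP difference was not tested.

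The genes most like Gbp3, the most abundant member, were sought by the root mean square distance of centred log2 CPM over the 6 libraries. The nearest outside the family was Plau, the urokinase gene, at a distance of 0.0757. Plau measured 401, 386 and 301 CPM in WT against 159, 159 and 86.0 CPM in DNAJ-PKAc. Then came Il15ra, a receptor chain for interleukin 15, at 0.138, Slfn8 of the Schlafen family at 0.154, Endod1 at 0.160 and the sugar transporter gene Slc2a6 at 0.163. Like Gbp3, all 5 had DNAJ-PKAc C as their lowest library and groups that did not overlap. They were picked for this likeness, so nothing is read from these traits.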

How the data were processed

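Total RNA was sequenced in 6 libraries, whose genotype and replicate letter are in their titles and characteristics. The values are expected counts for each gene symbol as deposited, named so per the file headers, and column totals that differ show that they were not scaled. The submitters' processing notes name STAR 2.5.2b, RSEM 1.3.0 and mm10. For the counting, its annotation, filters and strand setting were not given in the sources used here. The kit was stranded per the labels' protocols, but overlapping and near-identical genes remain uncertain.

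Expected counts were rounded, genes were filtered by filterByExpr with a minimum count of 10, scaled by TMM and fitted over the whole table with edgeR 4.0.16 in R 4.3.3 (quasi-likelihood test, robust dispersions, group as the only term, 2-sided, Benjamini-Hochberg threshold 0.05). Log2 CPM used a prior count of 2. Family totals replaced the members by their summed counts in the same fit. Counting intervals are exact 95% binomial intervals, and a count of 0 allows 3 counts. Both cover counting error only. The fit was tested on simulated counts. Alternatives were RLE and upper-quartile scaling, no filter, 1 CPM in 3 libraries, unrounded counts, DESeq2 1.42.0, limma-voom (limma 3.58.1), dispersions without the robust option, a replicate block, a threshold of 0.01, and libraries left out.

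The members, lists and tests were chosen with earlier results of these data known. Named genes were all GBP rows, in each list the 2 of smallest adjusted p and up to 2 of highest CPM, the 3 nearest tested genes beside each cluster and the 5 most like the most abundant member. Tgtp1, Tgtp2, Igtp, Mx2, Ifnb1, Ifne, Cd14, Cd68 and the inflammasome genes were named after their values were seen. Promoters and positions are from RefSeq on GRCm38.p6, transcripts from GENCODE M21. A gene that the rule names in the interferon-gamma list is not reported here.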

Additional observations from a re-analysis of the deposited data

How the results depend on the processing

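Over the 17 alternatives fitted, the log2 difference ran from -1.59 to -1.12 for Gbp3, from -6.14 to -5.42 for Gbp9 and from -6.66 to -4.20 for Gbp4. The family total ran from -2.14 to -1.72 when 1 library was left out. Its value of -1.98 is the same at a threshold of 0.05 or 0.01, and no test of it is read, since the contrast proposed the family. The number of members called, 6, was 3 at 0.01, 3 when members with counts that are not whole were left out, and 3 to 7 with 1 library left out. Over all genes the 385 calls became 974 with DESeq2, 72 at 0.01, 77 to 2808 with 1 library left out (2808 without DNAJ-PKAc C) and 5336 when WT B was left out together with DNAJ-PKAc C. The 7 calls in the related lists became 17, 3, 2 to 18 and 33 in the same order. Atg12, not called with all 6 libraries, was called lower at -0.34 without WT B and DNAJ-PKAc C. The cause of these shifts was not tested, and fits with libraries left out also rest on fewer libraries. Deviations of same-lettered libraries from their group means had an r of 0.211, -0.198 and 0.0282 for A, B and C. With WT B and DNAJ-PKAc C apart from their groups, these values cannot decide whether the letters pair libraries. With the replicate block 199 genes were called, 6 of them members, with Gbp3 called and Gbp4 not, and the family total was -2.04. The calls of Sqstm1 and Fdps were lost with it. At these depths 1 CPM is at most 10.1 counts, so genes below it rest on few reads.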
